A study of Mus musculus with 6 samples.

Results

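The blood-testis barrier is the seal that neighbouring Sertoli cells, the nurse cells of the seminiferous tubule, form between them. Its best-known junction proteins are encoded by the 8 mouse genes Cldn3, Cldn5, Cldn11, Ocln, Tjp1, Gja1, Cdh2 and F11r, which were chosen by name and are described here out of the 25771 genes measured. All 8 were present in the count matrix. Their levels were followed in 46495 testis cells of 17 deposited cell classes, of which 1676 cells (3.60%) were called Sertoli cells.

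The cells came from 6 libraries made from enzyme-digested testes of adult C57BL6 mice, 3 of the genotype named NONO and 3 of the genotype named NONO deltaER. NONO is a nuclear protein that binds RNA and DNA. The sources used here do not say what the deltaER change removes or alters, nor whether each library is another animal, so the p-values measure the spread between libraries, which may be technical. Libraries TA, TB and TC carry the deposited group name WT and were read as NONO. Libraries TD, TE and TF carry KI and were read as NONO deltaER; were that reading wrong, every genotype direction below would turn.

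The barrier divides the seminiferous epithelium. Below it, spermatogonia and preleptotene spermatocytes have access to factors from the blood, and above it meiosis and spermatid formation take place in a closed compartment. It combines tight junctions, whose strands are built by claudins and occludin and are tied to actin by plaque proteins, with gap junctions, adherens junctions and bundles of actin, in the same stretch of membrane. The barrier opens and re-forms as preleptotene spermatocytes cross it, and germ cells also attach to Sertoli cells through adherens and gap junctions of their own, so several of these genes are also used on the germ cell side.

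Each library held 6261 to 8909 cells and 81042216 to 110018960 UMI (unique molecular identifiers, 1 per counted transcript). Sertoli cells numbered 148 in TB to 350 in TC, with a median depth between 1217 UMI in TC and 2951.5 UMI in TB. Levels are given in CPM, that is, as UMI per 1e+06 UMI of the class in that library. The kit reads transcripts at their 3′ end, so CPM is not divided by gene length. The 17 Sertoli markers summed to 8551 CPM in the Sertoli class, between 6798 and 10248 CPM by library, and 16 of them had their highest class mean there. Elongating spermatid markers, such as the protamines Prm1 and Prm2, were also present in the Sertoli class, at 27489 to 41174 CPM against 100675 CPM in elongated spermatids. Of the 45836 distinct barcodes, 650 occurred in more than 1 library. The classes were taken to rest on the expression of these same cells, although the sources used here do not say how they were made, so levels by class are a description with no test.

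Of the 8 genes, 6 had their highest class mean in Sertoli cells, namely Cldn3, Cldn11, Ocln, Tjp1, Gja1 and F11r. The distance to the next class differed widely among them. Cldn11 stood 34.6-fold and Ocln 3.01-fold above the next class, whereas Cldn3, Gja1, Tjp1 and F11r stood 1.00-, 1.04-, 1.12- and 1.16-fold above it. The first 2 folds are imprecise: the macrophage Cldn11 mean of 4.53 CPM rests on 2 UMI in 1 library and is under the 6.59 CPM that 3 counts give. The mean log2 ratio of Ocln in Sertoli to Myoid cells within libraries was 2.31, but 2.95 without TC, 1.65 without TE and 3.99 over cells with at least 1000 UMI. Cdh2 was highest in the deposited class IPac/eDip SC (late pachytene to early diplotene spermatocytes) and Cldn5 in the class named Myoid. The number of genes led by Sertoli cells was 4 without library TC, where Cldn3 and Gja1 dropped out, and 5 with CPM scaled by TMM factors, where Cldn3 dropped out.

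**Figure D1:**
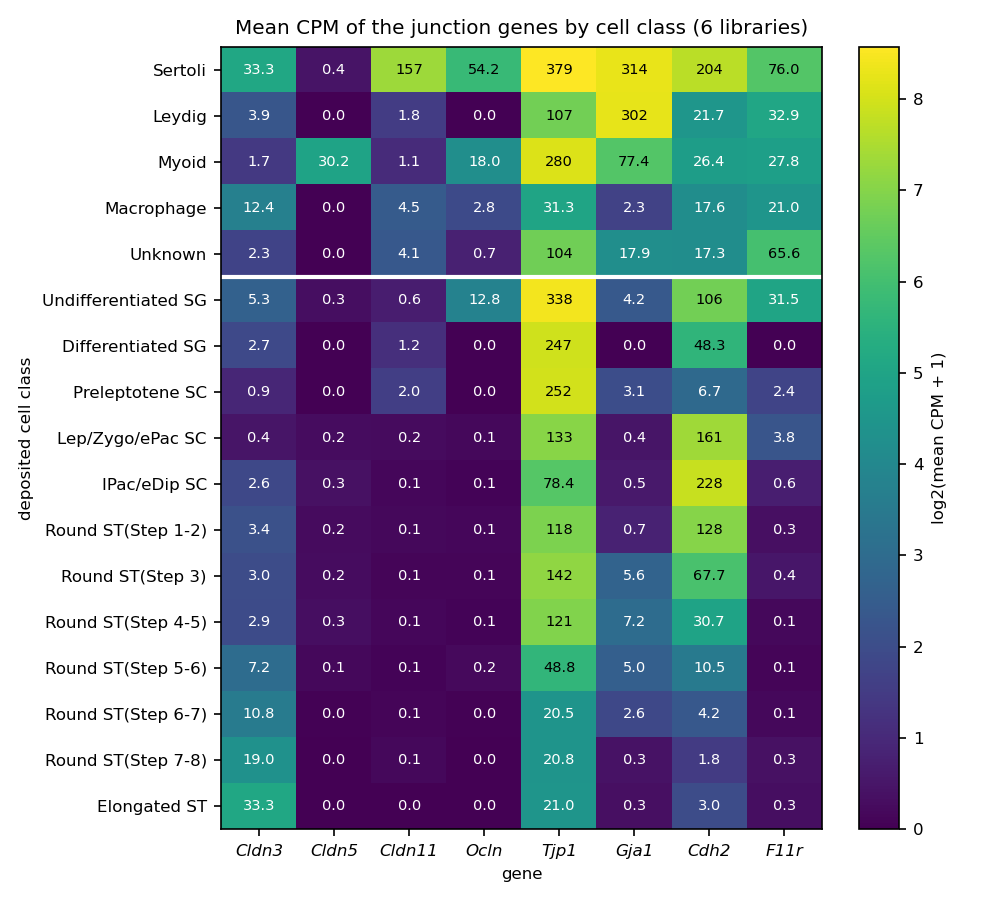
Mean CPM of the 8 junction genes (columns) in the 17 deposited cell classes (rows; somatic classes above the white line, germ cell classes below it in the order of the class names), averaged over 6 libraries and coloured on a log2 scale. Cldn11 is bright only in the Sertoli row at 157 CPM, Cldn5 is highest in the Myoid row at 30.2 CPM, and Tjp1 and Cdh2 extend down the germ cell rows.

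The 3 claudins differed most in where they were found, so the 250 bases upstream of each start site are shown before their values. These are RefSeq windows on GRCm38.p6, + strand, for Cldn3 at chr5:134985964-134986213, Cldn5 at chr16:18776597-18776846 and Cldn11 at chr3:31149670-31149919. Capitals mark every match, on either strand, to a set of 6 short motifs: the CCAAT box (CCAAT), the GC box (GGGCGG), the core letters bound by GATA factors (GATA), by SOX factors (ACAAAG), the TATA box (TATAAA) and an E-box (CACGTG).
Cldn3: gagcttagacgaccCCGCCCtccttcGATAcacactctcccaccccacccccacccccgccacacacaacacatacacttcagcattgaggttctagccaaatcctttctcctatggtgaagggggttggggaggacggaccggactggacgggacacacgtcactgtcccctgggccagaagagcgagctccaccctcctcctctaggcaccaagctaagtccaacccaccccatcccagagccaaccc
Cldn5: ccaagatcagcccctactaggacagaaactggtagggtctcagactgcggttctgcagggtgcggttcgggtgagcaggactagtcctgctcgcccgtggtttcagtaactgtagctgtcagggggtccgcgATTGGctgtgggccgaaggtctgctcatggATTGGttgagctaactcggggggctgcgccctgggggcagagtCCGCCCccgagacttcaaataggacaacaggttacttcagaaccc
Cldn11: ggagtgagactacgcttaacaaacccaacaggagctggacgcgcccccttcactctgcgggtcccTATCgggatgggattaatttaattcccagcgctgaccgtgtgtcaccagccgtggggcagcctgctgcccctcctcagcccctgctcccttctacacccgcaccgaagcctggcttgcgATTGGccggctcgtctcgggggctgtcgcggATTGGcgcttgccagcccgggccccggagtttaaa

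The Cldn5 and Cldn11 windows each held a pair of CCAAT boxes, all on the reverse strand as ATTGG. Those of Cldn11 began 66 and 35 bases upstream of the start, and those of Cldn5 118 and 88 bases upstream. The Cldn3 window held no CCAAT box but a GC box 236 bases and a GATA match 224 bases upstream. Cldn11 had a GATA match 185 bases and Cldn5 a GC box 45 bases upstream. Such matches are common: in the 250 upstream bases of 32851 windows, 33.8% held a CCAAT box, 32.7% a GC box and 53.6% a GATA match. None of the 3 stretches held the SOX, TATA box or E-box letters, which occurred in 16.5%, 12.4% and 6.02% of windows. A match is a string of letters and not a measured binding site.

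Cldn11 encodes the claudin that is needed for Sertoli cell tight junction strands, and it lies on chromosome 3 (mm10, 31149920 to 31164324). In Sertoli cells Cldn11 was at 128, 144 and 165 CPM in TA, TB and TC and at 169.6, 205 and 128 CPM in TD, TE and TF. It was above every other class in 6 of 6 libraries. The next class mean was 4.53 ± 11.1 CPM in macrophages (SD, n = 6), where 2 UMI in all were counted, and every other class lay below it. Sertoli cells, 3.60% of the cells, held 802 of its 876 UMI (91.6%). Elongated spermatids had no Cldn11 UMI among 7081985, which allows up to 0.424 CPM. Of the 8 genes, Cldn11 alone was highest in Sertoli cells in 6 of 6 libraries.

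Ocln encodes occludin, a tight junction protein that joins the claudin strands. The gene is on chromosome 13 (mm10, 100496507 to 100552718, minus strand). In Sertoli cells Ocln was at 73.3, 40.1 and 31.1 CPM in TA, TB and TC and at 68.4, 49.0 and 63.2 CPM in TD, TE and TF. Sertoli cells were highest in 5 of 6 libraries. In TC the class named Myoid was higher, at 58.0 CPM from 2 UMI in 21 cells. Across libraries the Myoid level was 18.0 ± 20.8 CPM (SD, n = 6), from 12 UMI, and its range overlapped that of Sertoli cells.

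Undifferentiated spermatogonia were the only germ cell class with an appreciable Ocln level, 12.8 ± 4.14 CPM (SD, n = 6), from 6.64 to 16.8 CPM by library. The 5 classes of Leydig cells, differentiated spermatogonia, preleptotene spermatocytes, round spermatids at step 7-8 and elongated spermatids had no Ocln UMI, and the remaining germ cell classes stayed at or below 0.162 CPM. In undifferentiated spermatogonia 87 UMI of Ocln stood against 4 of Cldn11, a ratio of 21.8, while in Sertoli cells 293 stood against 802, a ratio of 0.365. The 74 spermatogonia with an Ocln UMI held 1653 CPM of the undifferentiated spermatogonia markers, against 683 CPM in the 1429 without one. Their Sertoli markers summed to 236 CPM against 129 CPM, and their median depth was 6742 against 3169 UMI. The part of depth and of the Sertoli markers in the Ocln level was not tested.

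Cldn3 encodes a claudin known for the newly formed tight junctions behind migrating preleptotene spermatocytes. The gene is on chromosome 5 (mm10, 134986214 to 134987472, plus strand). In Sertoli cells Cldn3 was at 43.6, 28.4 and 33.9 CPM in TA, TB and TC and at 37.1, 27.7 and 29.0 CPM in TD, TE and TF. Elongated spermatids reached the same level, 33.3 ± 3.92 CPM (SD, n = 6), and Sertoli cells were above them in 4 of 6 libraries. The ranges overlapped, so the order of these classes is not settled. With TMM factors, elongated spermatids were the higher class, with a log2 ratio of Sertoli cells to elongated spermatids of -2.73.

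The CPM of Cldn3 climbed along the spermatid classes. Its mean was 2.93 CPM at step 4-5, 7.18 at step 5-6, 10.8 at step 6-7, 19.0 at step 7-8 and 33.3 CPM in elongated spermatids. The median depth by library fell from 13108 to 18607 UMI at step 4-5 to 2140.5 to 2730 UMI in elongated spermatids. A rise in CPM is therefore not a rise in Cldn3 UMI per cell, which was not compared. Of the 3077 Cldn3 UMI, 93.6% were in germ cell classes. The tail of Cldn3 overlaps the antisense gene Wbscr25 (134987433 to 135001350, minus strand), which rose across the same classes from 297 CPM at step 4-5 to 10506 CPM in elongated spermatids and was at 1400 CPM in Sertoli cells. The annotated stretch that both genes share is 134987433 to 134987472. The sources used here do not say whether strand was used in counting, so reads in that stretch cannot be assigned to either gene. Per 1000 UMI of Wbscr25 there were 24.4 UMI of Cldn3 in Sertoli cells, 104 at step 1-2, 10.1 at step 4-5 and 3.24 in elongated spermatids. The part of Wbscr25 reads in the Cldn3 levels was not tested.

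Cldn5 encodes the main claudin of vascular endothelium, and it has also been described at the mouse blood-testis barrier. Its position is chromosome 16 (mm10, 18776847 to 18778262). In these Sertoli cells it was nearly absent: 2 UMI in 1676 cells, 1 in TA and 1 in TF, and a mean of 0.374 ± 0.592 CPM (SD, n = 6). The class named Myoid, the smooth muscle-like cells around the tubule, held 30.2 ± 8.94 CPM, 80.8-fold above Sertoli cells. Its 6 libraries ranged from 18.3 to 41.0 CPM, above every other class in each. The Myoid count was 27 UMI in all, and the Sertoli count of 2 UMI makes the fold imprecise.

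The Cldn5 cells of the Myoid class differed from the rest of it. Of the 23 with a Cldn5 UMI, 20 (87.0%) had a UMI of a vascular endothelial marker, against 162 of 431 (37.6%) without. The summed endothelial markers, such as Pecam1 and Cdh5, reached 2203 against 679 CPM, and the myoid markers, such as Acta2 and Myh11, 2456 against 13538 CPM. The median depth was 1915 against 1425 UMI. Sertoli markers were higher too, at 744 against 455 CPM. All 11 Myoid cells with an Ocln UMI had an endothelial marker UMI, against 171 of 443 without, and 10 of the 11 had a Sertoli marker UMI, against 216 of 443, with summed Sertoli markers of 1200 against 455 CPM. Their median depth was the lower, 1005 against 1436 UMI. The part of these cells' mixed markers in the Myoid levels was not tested. No class is named endothelial among the 17, and the endothelial markers summed to 888 CPM in Myoid against 33.7 CPM in Sertoli cells. In the Myoid class 27 Cldn5 UMI were seen in 23 and 12 Ocln UMI in 11 of the 454 cells. Counts this low do not show whether the other cells of the class expressed these genes.

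Tjp1 encodes ZO-1, the plaque protein that ties claudins, occludin and gap junctions to actin (chromosome 7, mm10, 65296165 to 65527781, minus strand). In Sertoli cells Tjp1 was at 438, 369 and 192 CPM in TA, TB and TC and at 428, 312 and 537 CPM in TD, TE and TF. The spread was wide, with TC lowest and TF highest. Undifferentiated spermatogonia followed at 338 ± 36.4 CPM and were above Sertoli cells in 2 of 6 libraries. Myoid cells at 279.5 ± 28.6, preleptotene spermatocytes at 252 ± 25.5 and differentiated spermatogonia at 247 ± 41.8 CPM came next (SD, n = 6 each). The library ranges of neighbours overlapped throughout these first 5 classes, and a gap without overlap separated them from the 142 CPM of round spermatids at step 3.

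In the germ line the CPM of Tjp1 was lowest among spermatocytes in late pachytene to early diplotene, at 78.4 CPM. It stood again at 142 ± 13.8 CPM in round spermatids at step 3 and was at 20.5 to 21.0 CPM from step 6-7 on. The step 3 libraries (127 to 159 CPM) lay above all those of the late spermatocytes (68.2 to 84.0 CPM). A lower CPM is not fewer Tjp1 UMI per cell. The late spermatocytes, 2.93% of the cells, held 3637 Tjp1 UMI among 46378456. Preleptotene spermatocytes, 2.79% of the cells, held 516 among 2043880. Tjp1 UMI per cell were not tested between classes. Of the 55561 Tjp1 UMI, 95.3% were in germ cell classes and 3.59% in Sertoli cells. Such shares depend on the number of cells and on their depth. The median depth by library was 13108 to 18607 UMI in round spermatids at step 4-5 and 1217 to 2951.5 UMI in Sertoli cells.

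F11r encodes JAM-A, an immunoglobulin-like adhesion protein of tight junctions. It lies on chromosome 1 (mm10, 171437535 to 171464603). In Sertoli cells F11r was at 73.3, 60.2 and 56.6 CPM in TA, TB and TC and at 91.2, 88.0 and 86.9 CPM in TD, TE and TF. The class named Unknown, which carries interstitial fibroblast markers, followed at 65.6 ± 32 CPM and was above Sertoli cells in 3 of 6 libraries. Leydig cells (32.9 ± 10.2 CPM), undifferentiated spermatogonia (31.5 ± 8.04 CPM), Myoid cells (27.8 ± 14.1 CPM) and macrophages (21.0 ± 24.5 CPM) overlapped each other (SD, n = 6 each). Among germ cells F11r was highest in the first class. Differentiated spermatogonia had no UMI among 1555826, which allows up to 1.93 CPM, preleptotene spermatocytes were at 2.42 ± 2.92 CPM, and leptotene to early pachytene spermatocytes were at 3.83 ± 1.13 CPM (SD, n = 6 each), with 150 UMI seen in 6 of 6 libraries. From late pachytene on its means were at or below 0.640 CPM. In undifferentiated spermatogonia 208 UMI of F11r stood against 4 of Cldn11, a ratio of 52, against 0.498 in Sertoli cells.

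Gja1 encodes connexin 43, the gap junction channel that couples Sertoli cells with each other and with germ cells. It lies on chromosome 10 (mm10, 56377330 to 56402513). In Sertoli cells Gja1 was at 288, 318 and 281 CPM in TA, TB and TC and at 333, 379.8 and 283 CPM in TD, TE and TF. Leydig cells, whose coupling also uses connexin 43, were at 222, 411 and 199 CPM in TA, TB and TC and at 351, 303 and 324 CPM in TD, TE and TF. Each class was the higher in 3 of 6 libraries, so the 2 cannot be ordered. Myoid cells came next at 77.4 ± 53.8 CPM (SD, n = 6), below both in every library.

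Gja1 was low in the CPM of germ cells, but not evenly so. It had no UMI among 1555826 in differentiated spermatogonia, which allows up to 1.93 CPM, and was at or below 0.748 CPM from leptotene to step 1-2, then 5.62 ± 0.775 CPM at step 3, 7.24 ± 0.521 CPM at step 4-5 and 0.327 ± 0.318 CPM at step 7-8 (SD, n = 6 each). The libraries at step 4-5 (6.66 to 7.83 CPM) did not overlap those at step 3 (4.44 to 6.50 CPM). Among the 4459 Gja1 UMI, 48.3% were in germ cells and 36.2% in Sertoli cells.

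Cdh2 encodes N-cadherin, the adherens junction protein of Sertoli-Sertoli and Sertoli-germ cell contacts. It lies on chromosome 18 (mm10, 16588877 to 16809246, minus strand). In Sertoli cells Cdh2 was at 227, 254 and 127 CPM in TA, TB and TC and at 214, 216 and 183 CPM in TD, TE and TF. Late pachytene to early diplotene spermatocytes had 228 ± 21.1 CPM (SD, n = 6) and were above Sertoli cells in 4 of 6 libraries. Along the germ line Cdh2 was high in 2 separate stretches. Undifferentiated spermatogonia were at 106 ± 22.3 and differentiated spermatogonia at 48.3 ± 18.5 CPM, preleptotene spermatocytes at 6.71 ± 5.66 CPM, from 14 UMI, and the next class, leptotene to early pachytene, at 161 ± 27.9 CPM (SD, n = 6 each). The preleptotene maximum of 16.4 CPM lay far below the minimum of 132 CPM in the following class. From the late spermatocytes Cdh2 declined through the round spermatid classes to 4.15 CPM at step 6-7 and 1.82 CPM at step 7-8. Germ cells held 96.8% of its 36191 UMI.

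**Figure D2:**
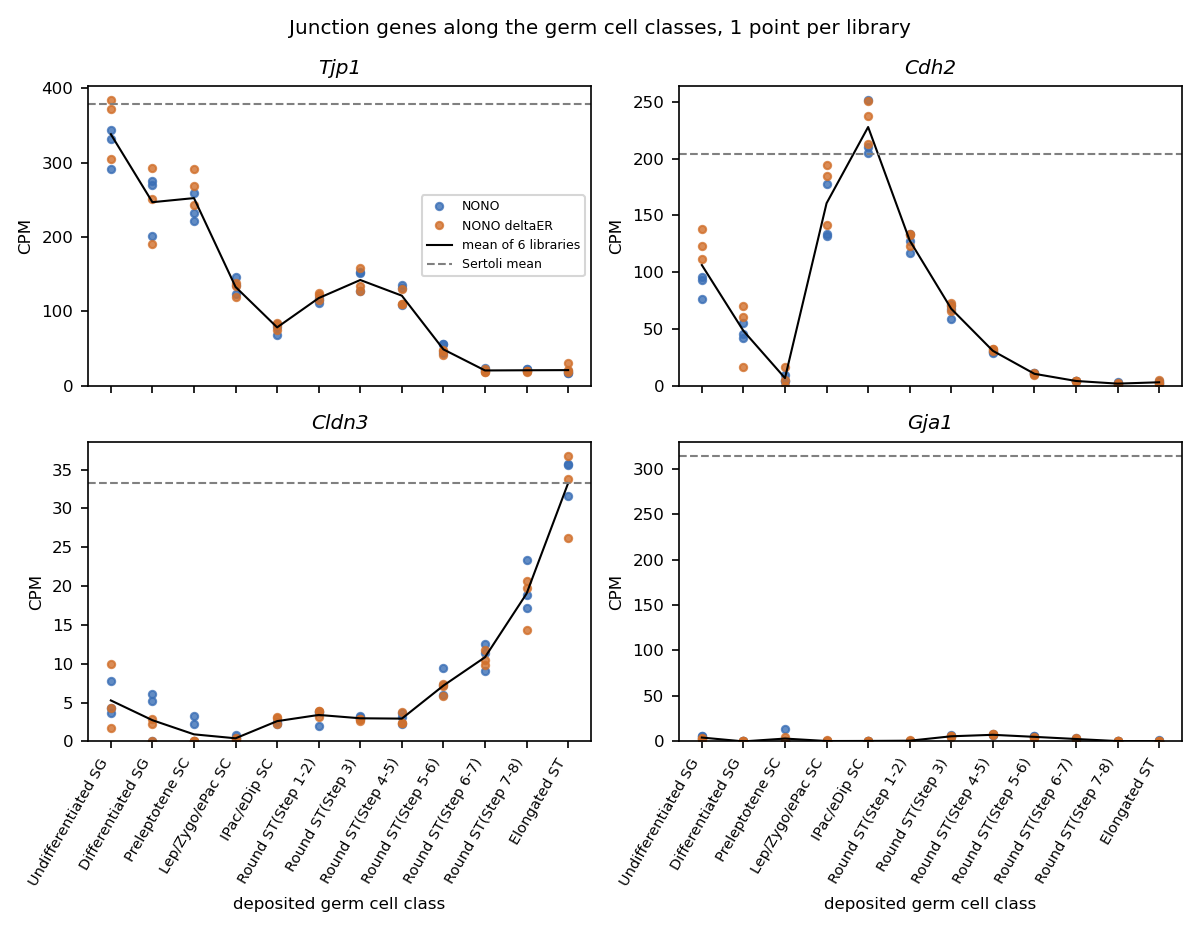
CPM of Tjp1, Cdh2, Cldn3 and Gja1 (linear axes from 0, 1 panel each) along the 12 germ cell classes, with 1 point per library coloured by genotype, the mean of 6 libraries as a line and the Sertoli mean as a dashed line. Cdh2 dips to 6.71 CPM in preleptotene spermatocytes and crosses the Sertoli line at 228 CPM, Cldn3 reaches the Sertoli line in elongated spermatids at 33.3 CPM, and Gja1 stays far below it.

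The class named Preleptotene SC, after the cells that cross the barrier, held Tjp1 at 252 CPM, while Cdh2 was at 6.71, Gja1 at 3.09, F11r at 2.42, Cldn11 at 2.01 and Cldn3 at 0.907 CPM, and Cldn5 and Ocln had no UMI among 2043880. The 6 measured spermatocyte markers, such as Sycp1 and Meiob, had their highest sum in this class, 4841 CPM, and reached 2578 CPM in the class named Differentiated SG against 739 CPM in undifferentiated spermatogonia. Both classes thus carried meiotic genes, and the class named Round ST(Step 1-2) had fewer round spermatid markers (467 CPM) than step 3 (1302 CPM) and 1385 CPM of the spermatocyte markers. The deposited names are used as labels, and the place of the Cdh2 gap in meiosis is only as certain as they are. In the next class, leptotene to early pachytene, Cdh2 was at 161 and Tjp1 at 133 CPM, F11r at 3.83 CPM, and the other 5 members at or below 0.402 CPM.

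Counted by cell, 39.8% of Sertoli cells had a Tjp1 UMI, 38.4% a Gja1, 29.6% a Cldn11, 29.0% a Cdh2, 17.1% an F11r, 12.5% an Ocln, 9.14% a Cldn3 and 0.117% a Cldn5 UMI (means of 6 libraries). With each cell thinned to 1000 UMI, which left out 467 shallower cells, the shares were 26.4%, 25.5%, 15.1%, 16.2%, 7.23%, 5.29%, 4.07% and 0.0901% in the same order. The same thinned shares in elongated spermatids, a class that should lack a Sertoli barrier, were 0% for Cldn11, Ocln, Gja1 and F11r, 0.261% for Cdh2, 1.94% for Tjp1 and 3.93% for Cldn3, at median depths of 2163 to 2735 UMI against 1981 to 3902 UMI in Sertoli cells. With 0 of 2562 spermatids, a share of up to 0.117% is allowed. For Cldn3, which is itself high in elongated spermatids, that class is no background; the thinned share was 0.198% in round spermatids at step 4-5, 0.538% in undifferentiated spermatogonia and 0% in Leydig and Myoid cells. The 149 Sertoli cells with a Cldn3 UMI held 10292 CPM of Sertoli markers against 8225 CPM in the 1527 without one. Their elongating spermatid markers summed to 35951 against 31576 CPM, while 71.8% against 75.8% of them had a UMI of such a marker. The median depth was 4803 against 1684 UMI. The part of the spermatid markers in the Sertoli Cldn3 level was not tested. At full depth 29.5% of Sertoli cells had no UMI of any of the 8 genes, 25.9% had 1 gene, 16.7% had 2, and none had all 8. None of the 8 thinned shares passed a test between the genotypes (exact two-sided permutation, adjusted p = 0.8 to 1, where 3 against 3 libraries cannot go below an unadjusted p of 0.1). These shares cover cells with a UMI, not cells expressing the gene.

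Over the 17 class means, the genes most like each member were named by Pearson correlation of log2(CPM + 1) among 15674 genes, as a description. Cldn11 was closest to Qpct (0.973), Prnd (0.963) and 4933402E13Rik (0.957), all highest in Sertoli cells. Ocln was closest to Actn3 (0.969), Ddah1 (0.958) and Slc35f2 (0.941), also highest in Sertoli cells. Cldn5 was closest to Icos (0.993), Klrc1 (0.992) and Myct1 (0.992), all highest in the class named Myoid, and Icos and Klrc1 are lymphocyte genes. Cldn3 had the weakest matches, Gm45474 (0.823), Plekhh2 (0.811) and Fam214b (0.809), which were highest in late spermatids. Tjp1 was closest to Unc119b (0.938), Cdh2 to Ccdc85c (0.929), Gja1 to Vstm4 (0.939) and F11r to Gm14399 (0.971).

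The second comparison was NONO deltaER against NONO. No junction gene passed the test in any cell class. Of the 136 pairs of a member and a class, 50 had enough UMI to be tested, in 16 classes, and 0 were called by edgeR's quasi-likelihood test on UMI summed per library (lowest Benjamini-Hochberg adjusted p = 0.198). Over all genes 0.0154% of gene and class pairs were called. Among the 50, 2 had an unadjusted p under 0.05, against 4.78% of all pairs, and 3 showed no overlap between the genotypes, against 9.79% of all pairs. DESeq2 also called 0 of them.

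In Sertoli cells 7 members were tested and 0 were called, as were 0 of the 9026 genes (0%). Log2 fold changes, NONO deltaER over NONO with their standard error, were 0.23 ± 0.23 for Cldn11, 0.29 ± 0.28 for Ocln, -0.18 ± 0.29 for Cldn3, 0.36 ± 0.25 for Tjp1, 0.19 ± 0.21 for Gja1, 0.04 ± 0.23 for Cdh2 and 0.49 ± 0.23 for F11r (edgeR, adjusted p = 0.960 to 0.996). Of these 7 values, 6 were above 0, against 51.0% of all genes tested, with a median of 0.23 against 0.01 over all genes tested. The 7 values rest on the same 6 libraries and are not independent of each other. Approximate 95% intervals ran from -0.23 to 0.68 for Cldn11, from -0.22 to 0.60 for Gja1 and from -0.13 to 0.85 for Tjp1, so changes of that size were not excluded by these libraries. Cldn5, with 2 UMI, could not be tested.

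**Figure D3:**
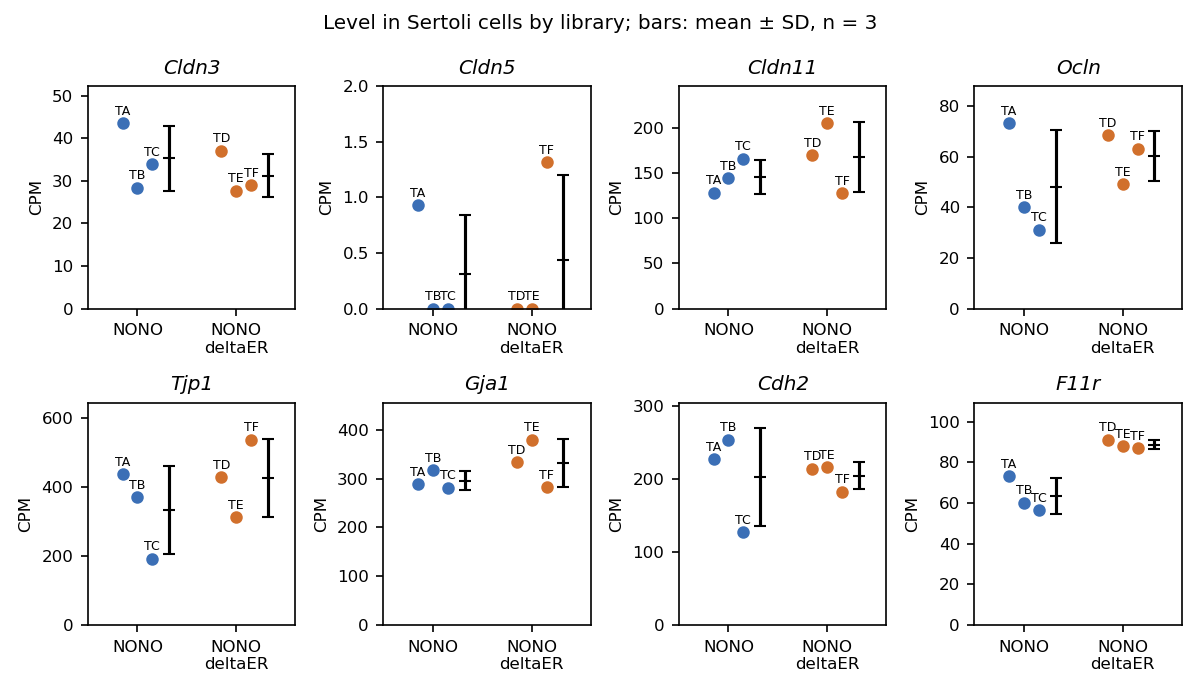
CPM of each junction gene in Sertoli cells (linear axes from 0, 1 panel per gene), with 1 labelled point per library, NONO in blue and NONO deltaER in orange, and bars for mean ± SD (n = 3 each). The genotypes overlap in 7 panels; for F11r the NONO deltaER libraries lie at 86.9 to 91.2 CPM and the NONO libraries at 56.6 to 73.3 CPM.

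F11r was the 1 member whose genotypes did not overlap in Sertoli cells, as was so for 9.53% of the genes tested there. Its mean was 63.3 ± 8.78 CPM over the NONO libraries and 88.7 ± 2.21 CPM over those of NONO deltaER (SD, n = 3 each), higher in 3 of 3 libraries, with an unadjusted p of 0.0427, a level that 4.83% of the genes reached, and adjusted p = 0.960 by edgeR. The median mitochondrial share over all cells sets TA, TB and TF (higher) apart from TC, TD and TE (lower). Within Sertoli cells this split did not hold, and TF had the lowest median. Sertoli medians were 1.93%, 3.10% and 1.59% in TA, TB and TC and 1.79%, 1.57% and 1.37% in TD, TE and TF. With the set from all cells as a covariate the F11r log2 fold change was also 0.49 (edgeR adjusted p = 0.661). In the Sertoli class the 10 macrophage markers (9 with a UMI, Tyrobp at 0) also did not overlap, at 141 to 221 CPM (NONO) and 282 to 289 CPM (NONO deltaER), against 27565 CPM in macrophages, where F11r was at 21.0 CPM. The 6 measured spermatocyte markers moved the other way, at 370.0 to 444 CPM (NONO) and 204 to 350.1 CPM (NONO deltaER). Their part in the F11r values was not tested.

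Library TC weighed on several Sertoli values. It had the lowest Sertoli median depth and was the lowest NONO library for Ocln, Tjp1, Gja1, Cdh2 and F11r. Without TC the log2 fold change was -0.19 in place of 0.04 for Cdh2, 0.08 in place of 0.29 for Ocln and 0.10 in place of 0.36 for Tjp1. Without TE, the highest library for Cldn11 and Gja1, it was 0.02 in place of 0.23 for Cldn11 and 0.04 in place of 0.19 for Gja1. Without TA the Ocln value was 0.78. Of the mitochondrial sets, the lower has TC as its only NONO library and the higher has TF as its only NONO deltaER library. Within them the Cdh2 difference, NONO deltaER minus NONO, was -57.7 CPM in the higher set and 88.0 CPM in the lower set. Cldn11 (-8.19 and 21.8 CPM) and Gja1 (-20.0 and 75.1 CPM) also differed in sign between the sets, while Ocln (6.49 and 27.6 CPM) and Tjp1 (133 and 178 CPM) were higher in NONO deltaER in both. Each set holds 3 libraries, so no test was made within them.

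Outside Sertoli cells the nearest to a change was Cdh2 in undifferentiated spermatogonia. It was at 93.4, 76.4 and 95.5 CPM in TA, TB and TC and at 138, 123 and 111 CPM in TD, TE and TF, with no overlap. The log2 fold change was 0.42 ± 0.15, with adjusted p = 0.198 by edgeR. This class had many shifted genes: 16.2% had an unadjusted p under 0.05, 21.9% did not overlap and 0.0271% were called. With the mitochondrial set as a covariate it was 0.35 (edgeR adjusted p = 0.387). The 8 undifferentiated spermatogonia markers were at 640 to 664 CPM (NONO) and 690 to 1024 CPM (NONO deltaER), and the 5 measured round spermatid markers at 297 to 541 and 157 to 249 CPM, both without overlap; their part in the Cdh2 values was not tested. Gja1 in round spermatids at step 5-6 was the third pair without overlap, at 5.69, 6.08 and 5.14 CPM in TA, TB and TC and 3.97, 5.06 and 4.01 CPM in TD, TE and TF (log2 fold change -0.36 ± 0.18, edgeR adjusted p = 1.00, with 8.1% of the class's genes not overlapping).

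**Figure D4:**
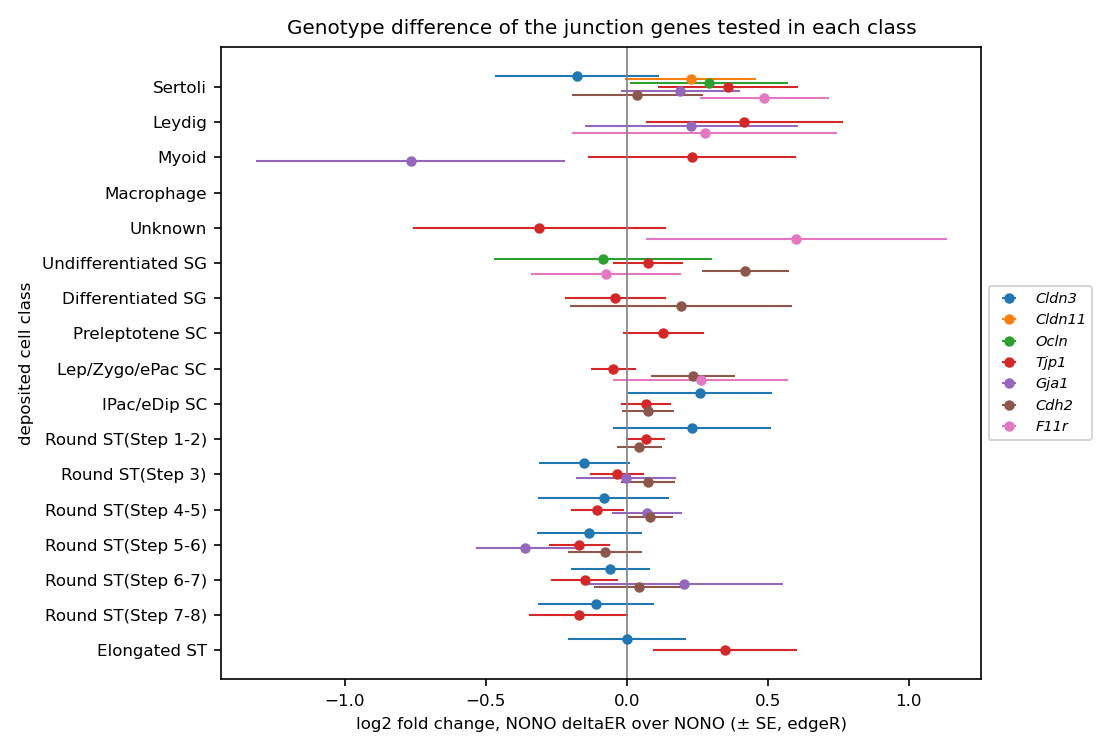
Log2 fold change of NONO deltaER over NONO (x axis) for each junction gene with enough UMI to be tested, by deposited cell class (y axis), with points for edgeR estimates and bars for ± 1 standard error (3 libraries per genotype). Of 50 estimates 30 lie above 0 and 20 below, none passed the test, and the widest bars belong to the small somatic classes.

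Tjp1 could be tested in all classes but macrophages. Its log2 fold changes lay between -0.17 and 0.13 in the germ cell classes up to step 7-8, with 0.35 ± 0.26 in elongated spermatids, 0.42 ± 0.35 in Leydig cells and -0.31 ± 0.45 in the class named Unknown. Over all cells, where 8 members were tested, 0 were called, as were 0% of the 20958 genes, and 0 had an unadjusted p under 0.05, which 6% of the genes had. The largest values there were 0.55 ± 0.24 for Cldn11, 0.42 ± 0.34 for Ocln and 0.39 ± 0.17 for F11r (edgeR adjusted p = 0.823, 0.870 and 0.823). Such sums alone do not separate more Sertoli cells from a higher level of the gene within a class. Sertoli cells were 3.09%, 1.74% and 4.63% of the cells in TA, TB and TC. In TD, TE and TF they were 4.79%, 4.33% and 3.59%. The part of these shares in the values over all cells was not tested.

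Whether Sertoli cells responded otherwise than Leydig cells, Myoid cells, the class named Unknown or undifferentiated spermatogonia was tested within libraries with limma. Of 11 such differences 0 were called, as was 0% of all genes in each of the 4 comparisons. The largest was Gja1 in Sertoli cells against Myoid cells, 1.28 ± 0.56 on the log2 scale (unadjusted p = 0.0424 by limma, a level that 4.68% of genes reached, adjusted p = 0.759). Gja1 in Myoid cells was at 54.8, 97.6 and 174 CPM in TA, TB and TC and at 27.4, 36.0 and 74.8 CPM in TD, TE and TF, and TC had 21 Myoid cells with 6 Gja1 UMI. Other markers moved with genotype in the Myoid class without overlap: the 7 measured fibroblast-like markers were at 145 to 604 CPM (NONO) and 625 to 1891 CPM (NONO deltaER), and the 17 Sertoli markers (15 with a UMI, Cst12 and Dhh at 0) at 409 to 435 and 513 to 599 CPM. The 8 myoid markers ranged from 4898 CPM in TC to 19705 CPM in TE. Their part in the Gja1 values was not tested.

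Other junction genes, grouped in 6 lists, were set beside the members in the Sertoli genotype comparison. In all 6 lists 0 genes rose and 0 fell, as over all genes tested (0%). Of the 25 other genes in the list named tight junction strand genes, which also holds JAM adhesion genes, 22 were measured but 2 had enough UMI to be tested. These were Jam2, a partner of the JAM family that was highest in Sertoli cells at 110.4 CPM (log2 fold change 0.16 ± 0.25), and Jam3 at 22.2 CPM (-0.28 ± 0.33). By level, the claudin, occludin and JAM genes of these Sertoli cells were mainly Cldn11, Jam2, F11r, Ocln and Cldn3. The next claudin, Cldn12, was at 7.63 CPM.

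The plaque and polarity genes were better covered, with 18 of the 22 measured tested. Of these, 12 were above 0, against 51.0% of all genes tested, and the median log2 fold change was 0.18. Cgn, which encodes cingulin, was at 463 ± 82.2 CPM and highest in Sertoli cells, with a log2 fold change of 0.19 ± 0.22. Ybx3, encoding a ZO-1-binding transcription regulator, was at 290 CPM and Sympk at 159 CPM. Magi1, a scaffold, had 0.62 ± 0.27 and Amotl2 0.49 ± 0.30 (edgeR adjusted p = 0.960 each). No gap junction gene other than Gja1 could be tested: Gjc1 was at 3.84 and Gja5 at 2.84 CPM.

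Of 25 measured adherens junction and desmosome genes 13 were tested, 9 were above 0, against 51.0% of all genes tested, and the median was 0.07. The alpha-catenins Ctnna2 (384 CPM, highest in Sertoli cells) and Ctnna3 (317 CPM) and the p120 catenin Ctnnd1 (175 CPM) led by level, with log2 fold changes of -0.15, 0.09 and 0.15. Ctnnd2 (0.38 ± 0.30) and Nectin2 (0.33 ± 0.22), a nectin that anchors spermatids and was highest in Sertoli cells, had the largest differences. Among 30 measured genes of the ectoplasmic specialization, the actin-bundle junction of Sertoli cells, and of adhesion signalling, 23 were tested. Of these, 15 were above 0, against the same 51.0%, and the median was 0.16. Espn, which encodes the actin bundler espin and was highest in Sertoli cells at 493 CPM, had 0.18 ± 0.23, Plec (514 CPM) 0.16 and Bsg (422 CPM) -0.22. Gsn, encoding the actin-severing gelsolin, had 0.77 ± 0.34 and Lama3, a laminin chain, 0.64 ± 0.42, at 22.9 and 17.4 CPM.

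Of the 38 measured barrier regulators 31 were tested, 23 were above 0 and the median was 0.18. Across all 9026 genes tested in Sertoli cells 51.0% were above 0. Wt1 and Sox9, transcription factors of Sertoli cell identity, were highest in Sertoli cells at 390.1 and 219 CPM, with log2 fold changes of 0.28 ± 0.21 and -0.02 ± 0.21. The largest difference of the lists was Mapk14, the p38 kinase, at 20.8 ± 4.71 CPM over the NONO libraries against 38.6 ± 9.99 CPM over those of NONO deltaER (SD, n = 3 each; log2 fold change 0.87 ± 0.31, edgeR adjusted p = 0.960), followed within its list by Gata1 with 0.63 ± 0.30 (adjusted p = 0.960 by edgeR). Timp2, a protease inhibitor, was at 569 CPM with -0.05 ± 0.21.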

How the data were processed

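Single-cell RNA sequencing of testis cells was done with the 10x Genomics 3′ version 2 kit, per the labels. The deposited counts are whole-number UMI per gene and cell, not normalized, and were made by the authors with Cell Ranger 2.1.1 on mm10, per the submitters' processing notes; no source used here says whether strand was used. The deposited mitochondrial percent and cell classes were taken as the authors gave them. No doublet caller was run; an alternative left out the 5% of cells with the most UMI per library and class. Every cell had at least 500 UMI.

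Counts were summed per library and class. Levels are CPM of those sums. The genotypes were compared in every class that had 20 cells or more in 2 libraries or more of each genotype, by edgeR 4.0.16 (TMM, filterByExpr, robust quasi-likelihood test, Benjamini-Hochberg adjustment over all genes of the class, threshold 0.05; R 4.3.3). Response differences between classes were tested by limma 3.58.1 on log2 CPM differences within libraries. DESeq2 1.42.0, other scalings, filters and depths, the mitochondrial set as a covariate and leaving out each library were alternatives. The fit was tested on simulated counts. Shares of cells with a UMI were taken after thinning to 1000 UMI and compared by exact permutation, which cannot go below p = 0.1 with 3 against 3. The limit for a count of 0 is 3 counts, and it covers counting error only. Gene positions are from GENCODE on mm10, and sequences from RefSeq, whose windows matched 7 of 8 members. Members and gene lists were chosen with earlier results of these data known. Genes named from the lists are the 3 with the highest mean CPM and the 2 with the largest absolute log2 fold change in Sertoli cells per list, of which 1 is not reported here; likeness names the 3 highest correlations among genes with at least 10 CPM in a class.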

Additional observations from a re-analysis of the deposited data

How the results depend on the processing

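Members and lists called in the genotype comparisons stayed at 0 under every alternative run, namely DESeq2, edgeR with RLE factors, no filter on low counts, cells with at least 1000 UMI, without the 5% of cells with the most UMI, the mitochondrial set as a covariate, and without each library in turn. Leaving out libraries kept the counts called between 0 and 0. The number of members highest in Sertoli cells was 6, and 4 to 6 without 1 library. Among single values, the Cldn3 log2 fold change in Sertoli cells was -0.18, and -0.337 to 0.0177 without 1 library, above 0 without TA. That of Cdh2 was 0.04, and -0.19 to 0.205 without 1 library, below 0 without TC and without TE. It was -0.00186 in cells with at least 1000 UMI and -0.0772 without the 5% of cells with the most UMI; neither gene was called in any setting. Without 1 library the Sertoli values ranged from 0.0194 to 0.408 for Cldn11, 0.075 to 0.775 for Ocln, 0.0971 to 0.611 for Tjp1, 0.0413 to 0.317 for Gja1 and 0.43 to 0.612 for F11r, and with the mitochondrial covariate Cldn11 was at 0.0385 and Tjp1 at 0.647. Without the 5% of cells with the most UMI Gja1 was at 0.0509. With TMM factors the log2 ratio of Sertoli cells to the compared class was -2.73 for Cldn3 (elongated spermatids), -3.59 for Cldn5 (Myoid) and -0.94 for Cdh2 (late spermatocytes). The cause was not tested. No paired analysis was possible because the deposited libraries carry letters that are not tied to the replicate numbers of the labels. With 148 to 350 Sertoli cells per library, Cldn5 and most other claudins and connexins lay under the depth needed for a test.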
